A study of Homo sapiens with 4 samples.

Results

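The mRNA of 10 histone demethylases of the KDM family was examined in renal carcinoma cells without VHL (786-O-Ctrl) and with VHL put back (786-O-VHL). The members are KDM2A, KDM2B, KDM3A, KDM3B, KDM4A, KDM4B, KDM4C, KDM5A, KDM5B and KDM6B, and they were taken by gene symbol from the deposited table of raw counts, where each of the 10 was found among 12912 genes. 786-O is an established human line of clear cell renal carcinoma without working VHL protein, the subunit of a ubiquitin ligase that marks hypoxia-inducible factors (HIF) for destruction. Both groups were the 786-OTR version of the line, in which a retroviral triple reporter (GFP, luciferase and thymidine kinase) is stably expressed. The 786-O-Ctrl group was VHL-null, and in the 786-O-VHL group VHL was restored with a retroviral vector for HA-tagged VHL. The groups are called control and restored from here on. Each group had 2 RNA-seq libraries from 1 subline, and the cells were grown in culture. Nothing in the sources used here says that the libraries came from separate cultures, so the p-values measure the spread between libraries, which may be technical.

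These enzymes take methyl groups off lysines of the histone H3 tail. Their JmjC domain holds an iron ion and uses oxygen and 2-oxoglutarate as substrates, so their activity depends on the oxygen supply, as does that of the prolyl hydroxylases that mark HIF for recognition by VHL. KDM5 enzymes act on H3K4, KDM3 and KDM4 enzymes on H3K9 (KDM4 also on H3K36), KDM6B on H3K27, and KDM2 enzymes on H3K36. KDM3A and KDM4B are known as genes that HIF induces in hypoxic cells. The study states that 786-O does not express HIF1α, and it reports less HIF2α protein after VHL restoration. Which HIF protein acts on KDM3A or KDM4B was not tested. The question here was how the mRNA of each enzyme differed between cells without and with VHL. The activity of the enzymes and the histone marks themselves were not measured in these libraries.

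The counts of the control libraries summed to 22141263 and 15714166, those of restored replicate 1 to 2807779 and those of restored replicate 2 to 16114120. Since the control libraries share 1 replicate number in the table, they are named by their depth (deeper or shallower control). Levels are given as CPM, the usual depth-scaled count, with the library total multiplied by edgeR's TMM factor. VHL, the gene put back, had 42.9 and 43.9 CPM in the controls against 178 and 163 CPM after restoration. The groups did not overlap, in the direction of the labels. All 6 renal epithelial markers reported (PAX8, PAX2, KRT8, KRT18, KRT19 and CDH6) were counted in all libraries, with a summed level of 1676 to 1728 CPM in the control and 1292 to 1405 CPM in the restored libraries, 4 of them being lower and 1 higher. The libraries hold bulk RNA, in which fewer cells of a kind and less RNA per cell cannot be told apart. Of 7 markers of leukocytes, endothelium and smooth muscle, PECAM1 was counted, at 0.266 to 0.427 CPM, and the other 6 were not analysed here. Of 10 known HIF target genes, 7 fell with restoration and none rose at an FDR (edgeR) under 0.05, with a median log2 fold change of -0.94. EGLN3, SLC2A1 and LDHA had the smallest p among those 7. The mRNA of HIF1A, the gene of HIF1α, was counted here and rose, with a log2 fold change of 1.35 (edgeR FDR = 1.18e-16). So did that of EPAS1, the gene of HIF2α, with 1.37 (edgeR FDR = 3.22e-17).

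Of the 10 demethylases, 5 rose and 1 fell with VHL restored, judged by an FDR of edgeR under 0.05. KDM6B rose most, 3.19-fold, followed by KDM5B (2.08-fold), KDM4C (2.01-fold), KDM4A (1.69-fold) and KDM4B (1.48-fold). KDM2B was the member that fell, to 0.826 of its control level, and this call depended on the processing. KDM2A, KDM3A, KDM3B and KDM5A did not pass the test. All 10 members passed the filter on low counts, each with at least 78 counts in every library. Over all 12335 genes tested, 32.6% were higher and 31.9% were lower, 64.5% in all, so more genes passed the test than did not. Scaling to library totals alone raised the number of genes called higher from 4017 to 5077 and reduced those called lower from 3939 to 3097. It moved the median log2 fold change of all genes from 0.02 to 0.15, and with it KDM2A (0.22), KDM3A (0.23), KDM3B (0.16) and KDM5A (0.25) were called higher as well, while KDM2B was not called. The median log2 fold change was 0.34 over the members and 0.02 over all genes tested. No member passed the stricter thresholds of a 4-fold change with FDR under 0.01, which 4.46% of the genes passed.

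**Figure D1:**
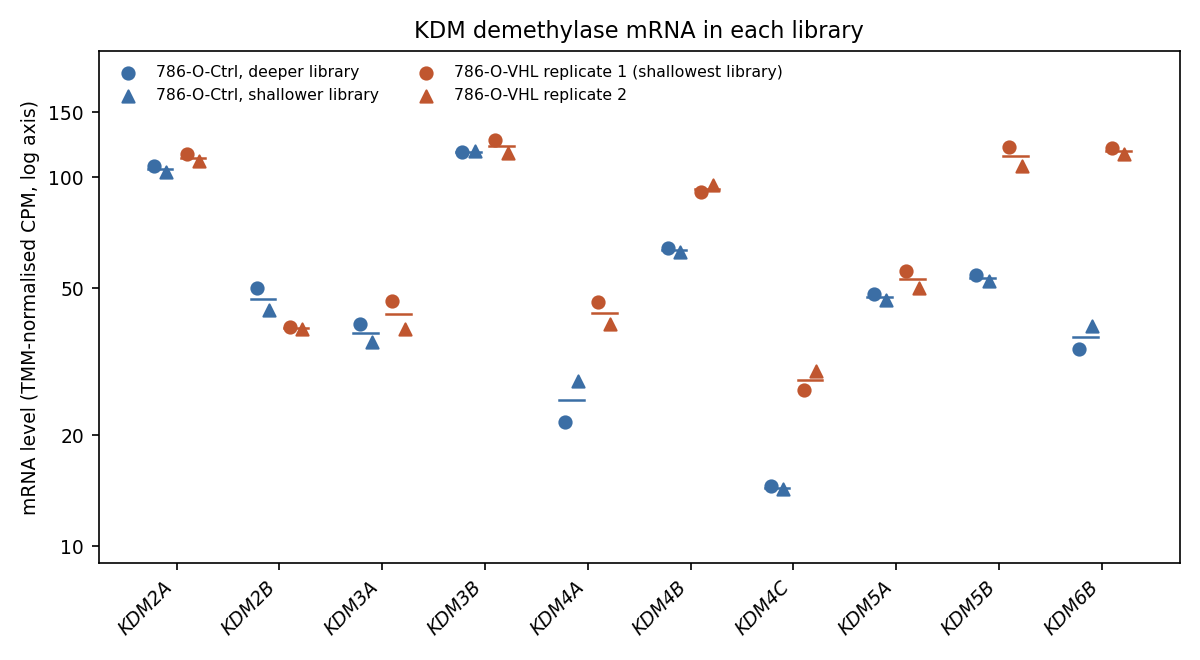
mRNA level of each of the 10 demethylases in TMM-normalised CPM on a log axis. Points are single libraries, blue for control (786-O-Ctrl) and orange for restored (786-O-VHL), and short lines are group means (n = 2 each); KDM6B went from 34.1 and 39.5 CPM to 120 and 115 CPM.

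The groups did not overlap for 8 of the members, KDM3A and KDM3B being the exceptions. Non-overlap is frequent with 2 libraries a group and was found for 80% of all genes tested. With 2 libraries against 2, the smallest p of a two-sided exact permutation test is 0.333, and the FDR values rest on the spread that edgeR shares between genes.

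KDM6B (JMJD3) removes repressive methyl groups from H3K27 and is known as a gene that inflammatory signals induce. It lies on the plus strand of chromosome 17 of GRCh37, from 7737535 to 7758114. KDM6B mRNA was at 34.1 CPM in the deeper and 39.5 CPM in the shallower control, and at 120 and 115 CPM in restored replicates 1 and 2. Both restored libraries were far above both controls. The mean rose from 36.8 ± 3.77 to 118 ± 3.41 CPM (SD of 2 libraries), or 1.67 ± 0.0773 as log2 fold change (± SE, edgeR FDR = 6.09e-17). Of all genes tested, 93.2% changed less in either direction. Fits without 1 of the libraries gave log2 fold changes from 1.56 to 1.77. The lowest value of the alternatives, 1.32, came from libraries thinned to equal depth.

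The 250 bases upstream of the KDM6B start that RefSeq places farthest 5′, at chr17:7737285-7737534 of GRCh37 on the plus strand, are shown because this member rose most. Capitals mark GCGTG, a match to the core of the HIF binding motif (ACGTG or GCGTG, searched on both strands), whose first base lies 231 bases before the start. The sequences come from RefSeq's promoter windows on GRCh38.p14 and were placed on GRCh37 by exact match. The window of the other RefSeq start of KDM6B, farther downstream at chr17:7839667-7839966 of GRCh38.p14, held no core.
KDM6B: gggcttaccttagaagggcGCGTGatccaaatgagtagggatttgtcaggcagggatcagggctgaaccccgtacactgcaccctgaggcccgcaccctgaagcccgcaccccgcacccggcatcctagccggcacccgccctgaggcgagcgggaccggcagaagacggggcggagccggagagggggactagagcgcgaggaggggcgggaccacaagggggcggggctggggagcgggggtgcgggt

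KDM5B and KDM5A erase methyl groups from H3K4, a mark of active promoters, and KDM5A has been described as sensitive to low oxygen. KDM5B lies on the minus strand of chromosome 1 from 202693623 to 202777615. KDM5B mRNA was at 54.3 and 52.4 CPM in the deeper and shallower control and at 121 and 107 CPM in restored replicates 1 and 2. Both restored values lay far above both control values. The mean rose from 53.4 ± 1.34 to 114 ± 9.64 CPM (SD of 2 libraries), or 1.06 ± 0.0731 as log2 fold change (± SE, edgeR FDR = 4.59e-13). KDM5A, on the minus strand of chromosome 12 from 389223 to 498486, was at 48.4 and 46.5 CPM in the controls and at 55.6 and 50.1 CPM in the restored libraries. The groups did not overlap, but the difference was small and did not pass the test (log2 fold change 0.11, 95% interval -0.06 to 0.29, edgeR FDR = 0.236). CCDC77, on the opposite strand, overlaps only the short stretch from 498439 to 498486 at the 5′ end of KDM5A. CCDC77 was itself lower, with a log2 fold change of -1.02, and it can share reads with KDM5A in that stretch. Per kilobase of the canonical transcript, KDM5B made up 56.4% and 56.5% of the sum of both genes in the controls and 71.4% and 71.1% in the restored libraries. With the merged length of all annotated exons, KDM5B was below KDM5A in the controls (2.18 and 2.11 against 4.02 and 3.87 CPM per kilobase). In the restored libraries it was slightly above (4.85 and 4.30 against 4.62 and 4.16). The shift in the share of KDM5B has no test of its own, given the permutation limit above.

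The stretch around the core in the KDM5B window is shown because KDM5B rose second most. The core starts 64 bases before the RefSeq start but inside the gene as GENCODE annotates it, and 66 of the 250 bases upstream of the RefSeq start are in annotated exons. The stretch lies at chr1:202777597-202777625 of GRCh37 on the minus strand.
KDM5B: cggaggcgcacgGCGTGggcttgcggcga

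The KDM4 enzymes (JMJD2) act on H3K9 and H3K36, and the 3 of this subfamily among the members rose. KDM4D, a further KDM4 gene that is not a member, did not pass the test (log2 fold change -0.31, edgeR FDR = 0.468). It was at a low level of 1.72 to 4.41 CPM. KDM4C, on the plus strand of chromosome 9 from 6720863 to 7175648, was at 14.5 and 14.3 CPM in the controls and at 26.5 and 29.9 CPM in restored replicates 1 and 2. It had the lowest CPM of the members in all 4 libraries, down to 78 counts in restored replicate 1. Its mean rose from 14.4 ± 0.171 to 28.2 ± 2.41 CPM (SD of 2 libraries), or 1.01 ± 0.121 as log2 fold change (± SE, edgeR FDR = 3.34e-08). KDM4A, on the plus strand of chromosome 1 from 44115820 to 44171189, was at 21.7 and 28.1 CPM in the deeper and shallower control and at 45.8 and 40.1 CPM in the restored libraries. Its control libraries differed by 0.37 on the log2 scale, more than for 90.2% of genes tested, where the median difference was 0.0819. The log2 fold change was 0.75 ± 0.115 (SE, edgeR FDR = 1.83e-06) and ranged from 0.57 to 0.94 over the fits without 1 library. An annotated protein-coding gene on the same strand starts at the same base and spans the whole of KDM4A, ending at 44396686. It has no row in the table, so reads could have been split there.

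KDM4B, on the plus strand of chromosome 19 from 4969124 to 5153609, is the KDM4 member best known as a HIF target. KDM4B mRNA was at 64.5 and 62.7 CPM in the controls and at 90.9 and 95.2 CPM in restored replicates 1 and 2. It was higher in the libraries with VHL, while 7 of the 10 HIF target genes were lower there. The mean rose from 63.6 ± 1.24 to 93.1 ± 3.03 CPM (SD of 2 libraries), or 0.56 ± 0.0702 as log2 fold change (± SE, edgeR FDR = 6.53e-08). Per kilobase of the canonical transcript, KDM4B remained the largest part of the sum of the 3 KDM4 members. It made up 58.4% and 53.9% in the controls and 49.9% and 51.8% in the restored libraries. This rests on the length chosen. With the merged length of all annotated exons, KDM4A was above KDM4B in the restored libraries (8.83 against 6.18 and 7.74 against 6.47 CPM per kilobase). In the shallower control KDM4A was above as well (5.42 against 4.26), and in the deeper control it was below (4.20 against 4.38).

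The KDM4B and KDM4C promoters are shown because both genes rose, KDM4B being a known HIF target, and because both windows held CACGTG. The 250 bases upstream of the KDM4B start, at chr19:4968874-4969123 of GRCh37 on the plus strand, held a CACGTG, in which the core reads on either strand, and GCGTG at 2 further places. CACGTG is also the E-box bound by factors such as MYC and MAX.
KDM4B: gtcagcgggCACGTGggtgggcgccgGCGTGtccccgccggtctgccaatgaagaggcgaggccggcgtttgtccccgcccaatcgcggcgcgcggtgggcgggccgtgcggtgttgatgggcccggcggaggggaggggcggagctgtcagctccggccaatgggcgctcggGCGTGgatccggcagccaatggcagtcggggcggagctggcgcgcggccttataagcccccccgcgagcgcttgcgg

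The matching window of KDM4C lies inside annotated exons, so only short stretches around 2 of its matches are shown, at chr9:6757898-6757927 and chr9:6757930-6757959 of GRCh37 on the plus strand. Both are CACGTG, starting 63 and 31 bases before the RefSeq start.
KDM4C, farther: tgtttgtaagccCACGTGactcaccaagtg
KDM4C, nearer: ggccccagcggtCACGTGacggcgcgcgcg

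KDM3A and KDM3B take methyl groups off H3K9, and KDM3A is among the best known HIF targets of the family. KDM3A, on the plus strand of chromosome 2 from 86667770 to 86719839, was at 40.0 and 35.7 CPM in the deeper and shallower control and at 46.1 and 38.8 CPM in restored replicates 1 and 2. The groups overlapped, since restored replicate 2 lay below the deeper control library. The log2 fold change was 0.10 with a 95% interval from -0.11 to 0.30 (edgeR FDR = 0.404). The 10 HIF target genes had log2 fold changes from -4.36 for EGLN3, a prolyl hydroxylase gene, to 0.89 for ANKRD37, which did not pass the test. VEGFA, the gene of an angiogenic growth factor, had -0.08 and did not pass the test either (edgeR FDR = 0.243). KDM3B, on the plus strand of chromosome 5 from 137688374 to 137772717, was at 117 and 118 CPM in the controls and at 126 and 116 CPM in the restored libraries. Its log2 fold change was 0.02 with a 95% interval from -0.11 to 0.16 (edgeR FDR = 0.769), and without restored replicate 1 it was -0.015.

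The stretch around the motif core of KDM3A is shown because its window held a core and its mRNA did not pass the test. The core starts 26 bases before the RefSeq start, which is downstream of the GENCODE gene start given above, so it lies inside the annotated gene, and 99 of the 250 bases upstream of the RefSeq start are in annotated exons. The stretch lies at chr2:86668456-86668484 of GRCh37 on the plus strand.
KDM3A: ccgggaggctgtGCGTGtcttgtgagagc

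A core was found in 13 of the 16 RefSeq promoter windows of the 10 genes (250 bases before to 50 after each start), and in at least 1 window of 9 of the genes. KDM3B was the gene without one. Of all 35116 windows of the same length, 48.4% held a core, and of the 14415 windows of genes tested here, 60.1%. CACGTG was found in windows of KDM4B and KDM4C, and in 9.11% of the windows of genes tested. The core was thus present in members that rose, in the one that fell and in members that did not pass the test. A match describes the letters of the window and is not a measured binding site.

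KDM2A and KDM2B bind unmethylated CpG-rich promoters through a CXXC zinc finger, and KDM2B brings a Polycomb complex (PRC1.1) to them. KDM2B, on the minus strand of chromosome 12 from 121866899 to 122018928, was at 50.1 and 43.7 CPM in the deeper and shallower control and at 39.4 and 38.8 CPM in the restored libraries. Both restored libraries were below both control libraries. The mean went from 46.9 ± 4.50 to 39.1 ± 0.405 CPM (SD of 2 libraries), or -0.28 ± 0.0926 as log2 fold change (± SE, edgeR FDR = 0.0106). The call was lost without the deeper control library (log2 fold change -0.17, edgeR FDR = 0.316) and without restored replicate 2 (-0.27, edgeR FDR = 0.149), with DESeq2 (-0.28, FDR = 0.105), with library totals (-0.14, edgeR FDR = 0.175) and after thinning (-0.09, edgeR FDR = 0.667). RNF34 overlaps the 3′ end of KDM2B on the opposite strand and was itself lower, with a log2 fold change of -0.46. Since the use of strand in the counting is not given, reads of that overlap cannot be told apart.

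KDM2A, on the plus strand of chromosome 11 from 66886734 to 67025553, was at 107 and 103 CPM in the controls and at 115 and 110 CPM in the restored libraries. The groups did not overlap, yet the log2 fold change of 0.09 (95% interval -0.05 to 0.22, edgeR FDR = 0.26) did not pass the test. Of the 9 PRC1.1 partners of KDM2B on the list used, 8 were tested and RING1 was not analysed here. RYBP, YAF2, PCGF1 and BCOR were higher, and SKP1 was lower, beside 32.6% higher and 31.9% lower over all genes tested. RYBP, a subunit that joins the RING proteins, rose most, with 1.29 ± 0.283 as log2 fold change (± SE, edgeR FDR = 0.000248) at a low level of 1.99 to 7.12 CPM. The list's median log2 fold change was 0.15.

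**Figure D2:**
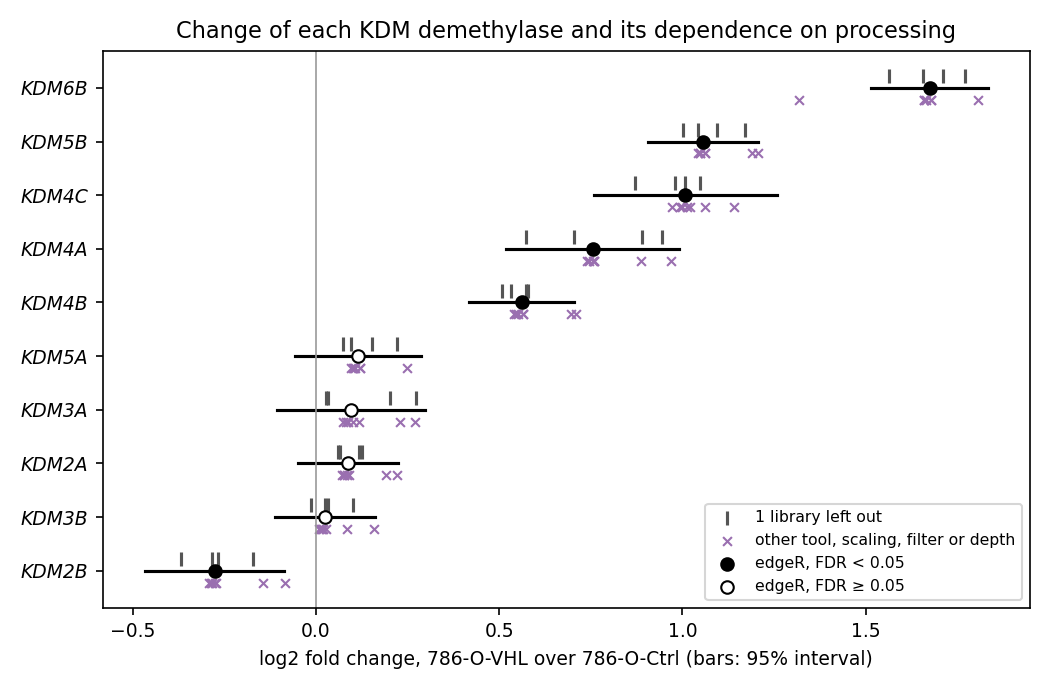
Log2 fold change of each demethylase, restored over control, with the 95% interval of the edgeR fit (filled points pass FDR < 0.05); grey ticks are fits with 1 library left out and purple crosses the other alternatives. The 5 members that rose stay at or above 0.51 in every fit shown, while KDM2B comes as close to 0 as -0.09.

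The order of the levels was compared per length, as CPM per kilobase of the canonical transcript of GENCODE v44. In the controls, KDM3B was highest with 17.4 to 17.5, followed by KDM2A with a mean of 14.2 and KDM4B with 11.2 to 11.5. KDM2B (8.23 to 9.43) and KDM3A (7.65 to 8.58) came next and overlapped. KDM5B (5.64 to 5.85), KDM4A (4.85 to 6.27) and KDM6B (5.07 to 5.87) could not be ordered, since their libraries overlapped, and KDM5A (4.35 to 4.52) and KDM4C (3.29 to 3.35) were lowest. In the restored libraries, KDM6B came to 17.1 to 17.8, where it overlapped with KDM3B at 17.3 to 18.8. KDM5B came to 11.5 to 13.0 and KDM4A to 8.95 to 10.2, while KDM5A became the lowest at 4.68 to 5.20. The order rests on the transcript chosen. With the merged length of all annotated exons, the mean of KDM6B was the third in the controls, where it overlapped with KDM4A. It was the first in the restored libraries, where it overlapped with KDM3B. By that length the mean of KDM4C was the lowest in the restored libraries, where it overlapped with KDM2B. KDM5A was above both there, at 4.62 and 4.16.

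**Figure D3:**
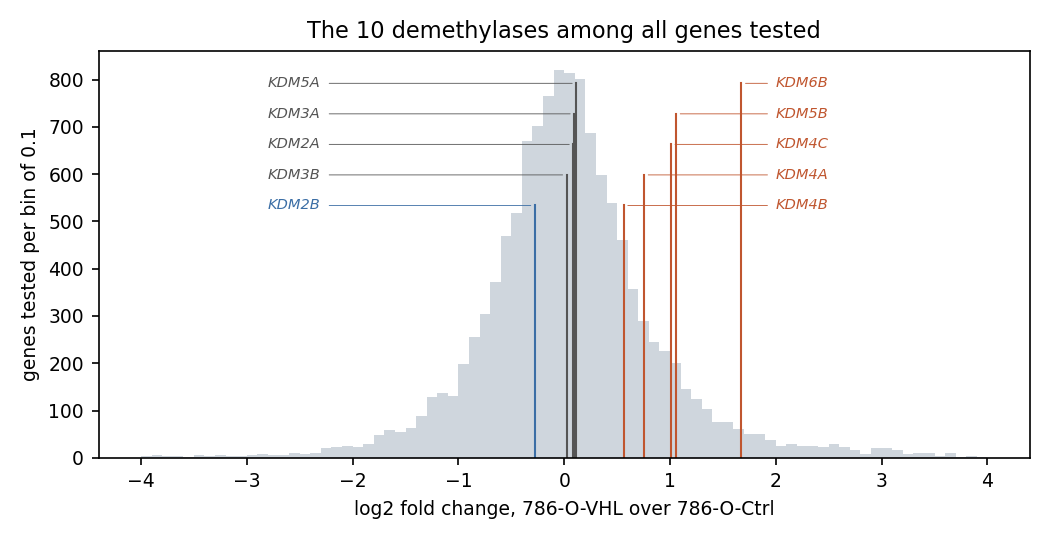
Histogram of the log2 fold changes (restored over control) of all genes tested, in bins of 0.1, with the demethylases as vertical lines (orange higher, blue lower, grey not called; line height has no meaning). 87 genes beyond 4 on either side are not drawn; the members reach from -0.28 to 1.67, inside the main body of the distribution.

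Among all genes tested the members lay within the common range. The median absolute log2 fold change was 0.42 over the members and 0.43 over all genes. KDM5B and KDM4C changed more than 83.5% and 82% of the genes, and KDM3B more than 3.19%. The members lie on 8 chromosomes, with KDM2B and KDM5A on chromosome 12 and KDM4A and KDM5B on chromosome 1. Of the 10 tested genes nearest to KDM4C, 5 on each side within 8649 kilobases, 7 were higher and 1 was lower, with a median log2 fold change of 0.46. Beside KDM4A, which rose as well, 0 of 10 such neighbours were higher and 5 were lower, with a median of -0.33. Beside KDM6B 4 were higher and 4 were lower, with a median of 0.48, and beside KDM5B 4 were higher and 5 lower, with a median of -0.05. Over the neighbours of the other 6 members the median ran from -0.37 to 0.13. Of all genes tested, 32.6% were higher and 31.9% were lower. The part of the surroundings in the members' changes was not tested.

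Other genes with a JmjC domain were taken from a list of 13, of which 12 were tested and HR had too few counts. Of these, 7 were higher and 2 were lower, where 32.6% and 31.9% of all genes tested were. KDM7A, which acts on H3K9 and H3K27, went from 12.4 ± 0.561 to 32.8 ± 3.14 CPM (SD of 2 libraries), without overlap. It had the largest rise of the list, with 1.46 ± 0.122 as log2 fold change (± SE, edgeR FDR = 2.63e-11). KDM5C and JMJD1C rose too, with log2 fold changes of 0.47 each. JMJD6 was the larger of the falls, from 50.5 and 46.3 to 26.1 and 25.4 CPM, with -0.92 ± 0.0984 as log2 fold change (± SE, edgeR FDR = 3.31e-09). The other fall was that of PHF2, at -0.20 (edgeR FDR = 0.0231). With DESeq2, with library totals and after thinning, 1 gene of the list was called lower in place of 2. The list's median was 0.41.

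The demethylases that do not use oxygen in this way, KDM1A and KDM1B, carry FAD and act on H3K4. KDM1A (LSD1) was at 146 and 140 CPM in the controls and at 98.4 and 86.0 CPM in the restored libraries. It fell, with -0.68 ± 0.0711 as log2 fold change (± SE, edgeR FDR = 2.28e-09), while KDM5B, which acts on the same lysine, rose. KDM1B had a log2 fold change of -0.15 and did not pass the test (edgeR FDR = 0.13).

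Genes of dividing cells moved with the groups in the same libraries. All 8 proliferation genes looked for were lower in the restored libraries, with a summed level of 1931 to 1943 CPM in the controls and 890 to 939 CPM in the restored libraries and a median log2 fold change of -1.48. EZH2 and SUV39H1 are known to be higher in dividing cells. The part of proliferation in the changes of the demethylases and methyltransferases was not tested.

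The genes that write the same marks were set beside the demethylases. Over all genes tested, 32.6% were higher and 31.9% were lower, and the counts given for each mark were not tested against these shares. For H3K27, KDM6B rose, and so did KDM6A (UTX), its relative, with 0.71 ± 0.112 as log2 fold change (± SE, edgeR FDR = 3.01e-06). Of 6 genes of PRC2, the complex that methylates H3K27, 4 were lower and 1 was higher. EZH2, its main catalytic subunit in dividing cells, was at 73.8 and 75.6 CPM in the controls and at 44.1 and 41.7 CPM in the restored libraries, or -0.82 ± 0.0788 as log2 fold change (± SE, edgeR FDR = 4.28e-10). EZH1, the alternative catalytic subunit, went the other way, from 20.7 and 18.8 to 48.5 and 48.4 CPM, a log2 fold change of 1.29 (edgeR FDR = 7.94e-12). RBBP7 and EED, further subunits, fell by 0.43 and 0.61 on the log2 scale.

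For H3K9, KDM4A, KDM4B and KDM4C rose while KDM3A, KDM3B and KDM4D did not pass the test. Of 5 H3K9 methyltransferases tested (EHMT2 was not analysed here), 2 were lower and 1 was higher. SUV39H1 and SUV39H2, which write the mark of heterochromatin, fell by 1.44 and 0.86 on the log2 scale (edgeR FDR = 1.10e-09 and 4.19e-06). SETDB2 rose by 0.91 at a level of 6.25 to 12.9 CPM. For H3K4, 2 of 6 methyltransferases were higher, KMT2D and KMT2C, with log2 fold changes of 0.49 and 0.29, and none was lower. For H3K36, KDM4A, KDM4B and KDM4C rose, KDM2B fell in the main fit and KDM2A did not pass the test. Of the H3K36 methyltransferases, NSD1, NSD3 and SETD2 were higher, with log2 fold changes of 0.57, 0.56 and 0.20, and NSD2 was lower, with -0.55. The number of these genes called higher was 2 in place of 3 with DESeq2, without the deeper control and without the shallower control. The medians were -0.37 for the PRC2 genes, -0.10 for the H3K9, 0.05 for the H3K4 and 0.20 for the H3K36 methyltransferases.

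**Figure D4:**
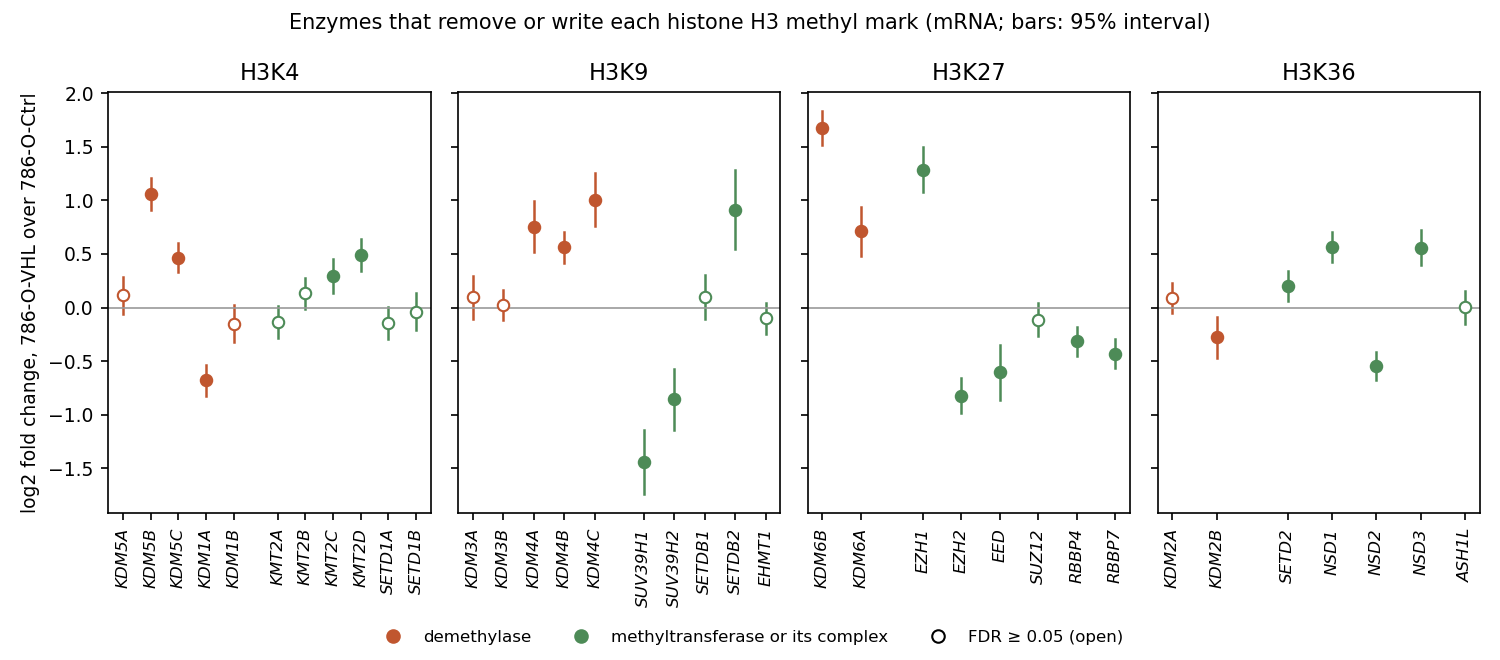
Log2 fold changes (restored over control, bars 95% interval) of enzymes that remove (orange) or write (green) methyl groups at 4 lysines of histone H3; filled points pass an edgeR FDR of 0.05. KDM4A, KDM4B and KDM4C, which also act on H3K36, are drawn at H3K9 only. Among the JmjC genes not drawn are KDM4D (-0.31), PHF2 (-0.20), JMJD1C (0.47) and KDM7A (1.46). Writers lie on both sides of 0 at H3K27 (EZH1 at 1.29, EZH2 at -0.82), H3K9 (SETDB2 at 0.91, SUV39H1 at -1.44) and H3K36 (NSD1 at 0.57, NSD2 at -0.55).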

How the data were processed

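RNA-seq libraries of both sublines, 2 each, were analysed. The authors sequenced on Illumina instruments, aligned reads to hg19 (STAR and CASAVA are named in the submitters' processing notes) and deposited raw whole-number counts per gene, not normalized. The sources used here do not give how reads were counted, whether by strand, or on which annotation. The study tested with DESeq2.

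Counts were tested with edgeR 4.0.16 (R 4.3.3). Genes were kept by filterByExpr (minimum count 10), which left 12335 of 12912. TMM scaling, the quasi-likelihood F test with group as the only term, and Benjamini-Hochberg adjustment over all genes tested (FDR) followed, with calls at 0.05. Standard errors are those implied by the F statistic, and 95% intervals use its degrees of freedom. Totals ran from 2807779 to 22141263 counts, where 3 counts correspond to 1.02 and 0.142 CPM. Replicates differed by more than sampling noise (chi-square per degree of freedom 2.25 and 2.76). For a repeated symbol the identifier with most counts was used. Coordinates and lengths are from GENCODE v44 on GRCh37, in which 12749 identifiers matched.

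On counts simulated for this comparison over 12335 genes, edgeR recovered 95 of 100 genes changed by 1.5 and 82 of 100 changed by 0.75 on the log2 scale, with 5 false calls. As many of these genes were changed up as down, and all others were left unchanged. In the data 64.5% of the genes tested were called and the scaling mattered, so the simulation does not give the number of false calls there. The alternatives were DESeq2 1.42.0, limma-voom (limma 3.58.1), RLE size factors, library totals, 2 other filters on low counts, thinning to the shallowest library and each library left out. The text names the members, VHL as a check, and from a list up to 3 called genes in a direction, by smallest p. RNF34, CCDC77, BCOR, VEGFA, ANKRD37, HR, KDM6A, KDM1B, KDM4D, HIF1A and EPAS1 were named after their values were seen. The members and lists were chosen with earlier results of these data known. One marker gene is not reported here. No count over a list was tested as a set.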

Additional observations from a re-analysis of the deposited data

How the results depend on the processing

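Of the 10 members' log2 fold changes, the rises of KDM4A, KDM4B, KDM4C, KDM5B and KDM6B kept their direction and their call under all 11 alternatives. KDM2B kept its direction in all 11 and lost its call in 5, so that 0 members were called lower with DESeq2, with library totals and after thinning, and 0 to 1 with a library left out. Library totals moved the median log2 fold change of all genes from 0.02 to 0.15, and under that scaling 9 members were called higher, with KDM2A at 0.22, KDM3A at 0.23, KDM3B at 0.16 and KDM5A at 0.25. With a library left out KDM3B ranged from -0.015 (without 786-O-VHL replicate 1) to 0.10.

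Among the lists, DESeq2 called 1 of the other JmjC genes lower, 1 H3K4 methyltransferase higher and 2 KDM2B partners higher, with 6 other JmjC genes (of 7) and 2 H3K36 methyltransferases (of 3) higher. Thinning gave the same 3 counts (1, 1 and 2) and 0 H3K9 methyltransferases higher. Library totals gave 1 other JmjC gene lower and 2 H3K9 methyltransferases higher. With a library left out, 6 to 8 other JmjC genes and 2 to 3 H3K36 methyltransferases were higher, 1 to 2 other JmjC genes lower, 1 to 2 H3K4 methyltransferases higher and 0 to 1 lower, 0 to 1 H3K9 methyltransferases higher, 2 to 4 KDM2B partners higher and 1 to 2 FAD-dependent demethylases lower. The cause was not tested.

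A library left out of a group of 2 leaves 1, which is then assumed to vary like the other group. The total of 2807779 counts in 786-O-VHL replicate 1 limits the precision of low genes. No paired analysis was possible because both 786-O-Ctrl columns carry the same replicate number.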
